A study of Homo sapiens with 20 samples.

Results

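Divergent transcript lncRNAs are long non-coding RNAs that start beside a protein-coding gene and are transcribed away from it, and GENCODE names them after that gene with the ending -DT. The pairs described here are all lncRNA genes of that name ending in GENCODE release 44, each set beside the protein-coding gene named before the ending. There were 589 such lncRNAs, of which 588 had a protein-coding partner and 520 pairs had both members counted in both conditions. These 520 pairs hold 520 lncRNAs and 519 mRNAs among the 27697 genes tested, because 2 lncRNAs share the name TNFRSF10A-DT and the partner TNFRSF10A. Of the 68 pairs left out, 64 lacked a tested lncRNA and in 4 only the partner had too few counts.

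The RNA came from NGP, an established human neuroblastoma cell line. The 10 nutlin samples were treated with racemic nutlin-3 at 8 µM, a small molecule that binds MDM2 and so releases the transcription factor p53 from degradation. The 10 vehicle samples received ethanol. The cells of all 20 samples come from 1 line. The study describes the samples as biological replicates grown in multi-well flasks, the sample labels name no separate cultures or days, and p-values measure only the spread between these samples.

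Many human promoters are open in both directions. RNA polymerase II then starts a stable mRNA on one strand and a short-lived RNA on the other, and only some of the upstream RNAs are spliced, polyadenylated and stable enough to be annotated as lncRNA genes. Both RNAs share a nucleosome-free stretch between their start sites, usually inside a CpG island. Whether the members of a pair rise and fall together is therefore a question about the shared stretch, about each RNA's own promoter elements and about the stability of each RNA.

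By the start sites of the canonical transcripts, 491 of the 520 pairs pointed apart, 28 had starts that overlapped and 1 lay on the same strand. The median distance between the start sites of the pairs that pointed apart was 194 bases (quartiles 119 and 367), and 446 of them lay within 1000 bases. In 86 pairs exons of both strands overlapped, with a median of 120 shared bases. The libraries were stranded, but whether strand was used when reads were assigned to transcripts is not given in the sources used here, so that reads from these shared bases cannot be told apart.

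The stretches between the start sites of 6 pairs are printed because their pairs carry the patterns described further on. BTG2-DT rose with its partner, UBL7-DT fell with its partner, and the lncRNAs of the other 4 pairs rose while their partners fell. Each stretch is read 5′ to 3′ on the strand of the mRNA from GRCh38, so that the lncRNA starts just before the first base, on the other strand, and the mRNA just after the last. Capitals mark, on either strand, the letters of the CCAAT box, the GC box (GGGCGG), an ETS family core (CCGGAA), the TATA box (TATAAA) and part of an NRF1 core (TGCGCA), and matches may overlap.
BTG2-DT and BTG2: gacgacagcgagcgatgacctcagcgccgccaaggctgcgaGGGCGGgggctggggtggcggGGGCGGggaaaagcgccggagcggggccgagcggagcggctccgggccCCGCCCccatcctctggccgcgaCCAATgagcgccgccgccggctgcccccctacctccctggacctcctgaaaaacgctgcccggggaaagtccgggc
UBL7-DT and UBL7: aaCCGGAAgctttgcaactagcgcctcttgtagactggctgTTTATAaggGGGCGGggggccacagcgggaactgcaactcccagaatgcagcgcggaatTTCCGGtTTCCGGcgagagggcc
NUP107-DT and NUP107: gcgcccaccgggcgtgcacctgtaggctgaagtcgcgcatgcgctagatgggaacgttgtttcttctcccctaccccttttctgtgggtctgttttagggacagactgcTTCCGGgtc
CKAP2-DT and CKAP2: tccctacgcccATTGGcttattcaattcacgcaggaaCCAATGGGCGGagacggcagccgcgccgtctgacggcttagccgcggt
FRG1-DT and FRG1: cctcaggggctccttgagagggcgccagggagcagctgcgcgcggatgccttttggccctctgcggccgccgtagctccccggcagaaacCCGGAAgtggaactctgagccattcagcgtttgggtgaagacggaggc
MAD2L1-DT and MAD2L1: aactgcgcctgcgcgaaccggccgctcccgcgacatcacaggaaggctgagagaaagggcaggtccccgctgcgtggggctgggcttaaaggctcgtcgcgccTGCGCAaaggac

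The stretches lie at chr1:203305310-203305518 (BTG2), chr15:74461161-74461283 (UBL7), chr12:68686860-68686977 (NUP107), chr13:52455393-52455477 (CKAP2), chr4:189940734-189940871 (FRG1) and chr4:120066849-120066963 (MAD2L1). Each lies between the start sites of the canonical transcripts, but other annotated transcripts reach into every stretch. The NUP107 stretch lies wholly inside NUP107-DT, over all of its 118 bases, and in the other 5 the span of the lncRNA covers at most 60 bases and that of the mRNA at most 49. They are between 85 and 209 bases long, and their GC content ran from 59.3% for NUP107 to 76.1% for BTG2. The BTG2 stretch holds 3 GC boxes and 1 CCAAT box, and the UBL7 stretch 3 ETS cores, 1 GC box and the letters TATAAA. A match of letters is a description of the stretch and no more. Only these exact letters were searched, so that other forms of the same elements stay unmarked.

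In windows of 300 bases, from 250 before to 50 after each start site, the partners were richer in GC than mRNAs in general. The median GC content was 68.7% in the 519 partner mRNAs and 65% in all 17351 tested mRNAs. In the -DT lncRNAs it was 67.7%, against 50.3% in all 10346 tested lncRNAs. The GC box GGGCGG was in 71.2% of the -DT lncRNA windows and 26.2% of all lncRNA windows, and in 78% of partner windows and 66.5% of all mRNA windows. The letters TATAAA were in 3.85% of the -DT lncRNA windows, 4.43% of partner windows, 14.9% of all lncRNA windows and 7.68% of all mRNA windows. Other pairs of a tested lncRNA and mRNA, with starts head to head within 5000 bases, were read as well. Their mRNAs were close to the partners, with a median GC content of 68.3%, GGGCGG in 77% and TATAAA in 4.82% of windows. For their lncRNAs these values were 63%, 56.2% and 6.98%. A window of a -DT lncRNA often overlaps that of its partner, so that the similarity of both members is partly shared sequence. The first 1000 bases of genomic sequence downstream of each start were also searched. They can run past the end of a short transcript. The polyadenylation hexamer AATAAA was in the first 1000 bases downstream of the start, introns included, for 38.3% of -DT lncRNAs and 15.4% of partners (42.4% of all lncRNAs and 19.8% of all mRNAs). The splice donor letters GTAAGT were there in 15.4% of -DT lncRNAs and 12.1% of partners (21.4% of all lncRNAs and 16.8% of all mRNAs). In the other head-to-head pairs AATAAA was there for 40.7% of lncRNAs and 15.2% of mRNAs, and GTAAGT for 16.9% and 14.3%.

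By their medians, the -DT lncRNAs were shorter and had fewer exons than their partners, but were longer than lncRNAs in general. The canonical transcript had a median of 1154 bases and 3 exons, and 114 of the 520 (21.9%) had a single exon. The partners had a median of 3750 bases and 10 exons. All tested lncRNAs had medians of 810 bases and 2 exons, and the lncRNAs of other head-to-head pairs 869 bases and 2 exons.

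Total estimated counts per library ran from 14455477 to 19532971 for vehicle and from 15078052 to 17442896 for nutlin. At this depth 1 CPM, the count scaled to library size with TMM factors, is about 14 to 18.9 read pairs. All 11 neuroblastoma markers checked, among them HAND2, GATA3 and MYCN, averaged at least 1 TPM, while CD3E, the T cell marker, was at 0 and SOX10, the Schwann cell marker, was at 0.111 TPM or less in every sample. Over the whole list of 4 immune markers the summed level was 0.389 to 1.67 TPM in the vehicle and 2.96 to 6.56 TPM in the nutlin samples, nearly all of it CD68. The 4 Schwann cell markers summed to at most 2.25 TPM, the 3 endothelial markers to at most 1.2 TPM, and the 5 fibroblast markers to between 4.77 and 12.5 TPM. The part of other cells in the results was not tested. The response to nutlin was present in every library, with MDM2 and CDKN1A together at 158 to 330 TPM in the vehicle and 3529 to 5044 TPM in the nutlin samples.

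Levels of different genes were compared in TPM, which is per transcript length. The -DT lncRNAs were far below their partners. Their mean level over the 20 samples had a median of 0.861 TPM (quartiles 0.303 and 2.64), against 15 TPM (quartiles 5.32 and 34) for the partners. Within pairs the partner was a median of 15.2 times as abundant as its lncRNA. With 0.01 TPM added to both members the median log2 ratio of lncRNA over partner was -3.89. Among the 201 pairs in which both members reached 1 CPM this factor was 6.18. The lncRNA had the higher mean TPM in 42 of the 520 pairs (8.08%), and in 22 of the 201. In 11 of the 201 it was above its partner in every sample. In the 1183 other pairs of a tested lncRNA and a tested mRNA whose starts lie head to head within 5000 bases, the lncRNA was the higher in 173 (14.6%), and the median log2 ratio was -3.38. The difference between these kinds of pairs was not tested.

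ISL1-DT was the most abundant of the -DT lncRNAs. ISL1 is a LIM-homeodomain factor of the sympathetic lineage, and the start sites of the pair are 3951 bases apart. ISL1-DT was at a mean of 42.9 TPM in the vehicle and 70.1 TPM in the nutlin samples, while ISL1 itself was at 154 and 137 TPM. Next came EMSY-DT (38.7 and 32 TPM), GARS1-DT (23.5 and 41.6 TPM), TBC1D22A-DT (28.7 and 31.2 TPM) and RAB30-DT (29.4 and 27.5 TPM). The partners of these are a BRCA2-binding protein, the glycyl-tRNA synthetase, a member of the Rab GTPase-activating protein family and a Golgi Rab GTPase. Of these 5 lncRNAs, 3 were above their partners per length, namely EMSY-DT, TBC1D22A-DT and RAB30-DT. GARS1-DT starts 32053 bases from GARS1 by the canonical transcripts.

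The pairs with the highest ratio of lncRNA to partner were RAB30-DT (6.48 times the TPM of RAB30), EPM2A-DT (5.96 times EPM2A, which encodes the glycogen phosphatase laforin) and MAP3K9-DT (4.9 times MAP3K9, a mixed lineage kinase). RAB30-DT was between 10.9 and 14.2 CPM in the vehicle (median 12.7) and between 10.6 and 13.8 CPM in the nutlin samples (median 11.3). These groups overlapped and the lncRNA did not pass the test (adjusted p = 0.14, edgeR quasi-likelihood), while RAB30 fell by 0.75 ± 0.07 on the log2 scale (SE, adjusted p = 3.7e-10). MAP3K9-DT fell by 0.72 ± 0.11 (adjusted p = 2.1e-06), while MAP3K9 was at a median of 16.5 CPM in the vehicle and 17.7 CPM in the nutlin samples (adjusted p = 0.587). EPM2A-DT rose by 0.75 ± 0.08 (adjusted p = 2.73e-09), from 5.3 to 7.99 CPM in the vehicle to 9.14 to 12.8 CPM in the nutlin samples. EPM2A fell by 0.16 ± 0.06 (adjusted p = 0.0228), with groups that overlapped. The start sites of that pair are 63889 bases apart.

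After nutlin, 214 of the 520 -DT lncRNAs were higher and 37 lower at 5% FDR, which is 41.2% and 7.12%. Among all tested lncRNAs the shares were 32% and 6.36%. In bulk RNA, a change in how many cells hold a transcript and a change in its amount per cell cannot be told apart. The -DT lncRNAs were more abundant than lncRNAs in general, with 27.3% of them and 48.6% of all lncRNAs under 0.2 CPM, and the share called higher rose with abundance. Under 0.2 CPM, 28.2% of the 142 -DT lncRNAs and 17.1% of the 5027 lncRNAs of that level were higher. From 0.2 to 1 CPM the shares were 41.6% and 40%, from 1 to 5 CPM 48% and 52.1%, and from 5 CPM 54.7% and 56.8%. At 1 CPM or more, 102 of 205 -DT lncRNAs were higher (49.8%, background 53.6%) and 28 lower (13.7%, background 17%). At matched abundance from 0.2 CPM on, the shares called were thus near the background of all lncRNAs. The median log2 fold change (LFC) was 0.45 for the -DT lncRNAs and 0.50 for all lncRNAs, while it was 0.19 for all tested genes.

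The partner mRNAs leaned the other way. Of 519, 138 were higher (26.6%) and 276 lower (53.2%), against 32.4% and 38.5% of all tested mRNAs. Much of the distance to the background came with abundance, as 443 of the partners had 5 CPM or more. At that level 24.4% of partners and 27.5% of all mRNAs were higher, and 59.6% and 56.7% were lower. At 1 CPM or more, 127 of 482 partners were higher (26.3%, background 31.4%) and 274 lower (56.8%, background 50.6%). The median LFC of the partners was -0.17. In TPM, all partners together held 33282 to 36016 per vehicle sample and 28933 to 30777 per nutlin sample. All -DT lncRNAs together held 1110 to 1235 TPM per vehicle sample and 1344 to 1539 TPM per nutlin sample. Neither sum overlapped between the groups. The same sums over all lncRNAs and all mRNAs were not taken. Single genes weigh on such sums, as the most abundant partner alone had a mean of 5330 TPM.

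**Figure D1:**
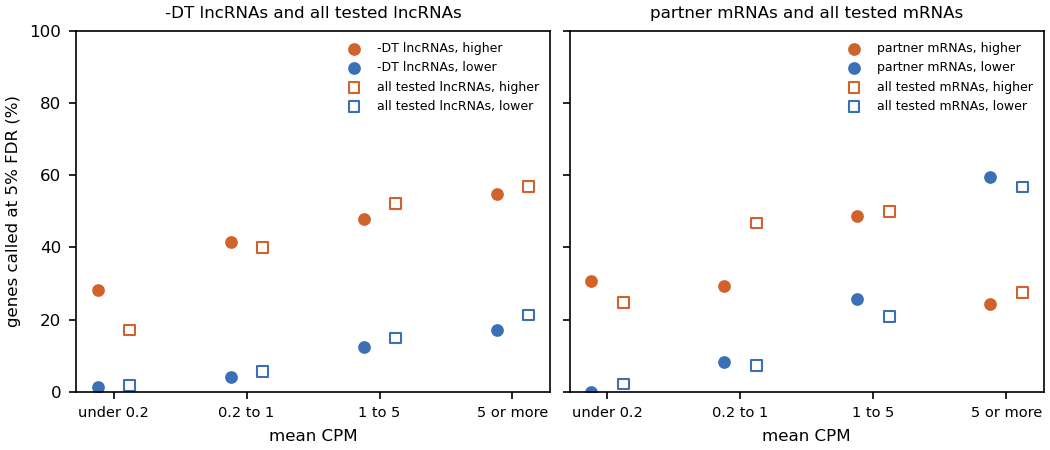
Percentage of genes called higher (orange) or lower (blue) after nutlin at 5% FDR (y axis) by mean CPM (x axis), for -DT lncRNAs and partner mRNAs (filled circles) and for all tested lncRNAs or mRNAs (open squares). In the lncRNAs of 5 CPM or more, 54.7% of the -DT members and 56.8% of all were higher, while in the mRNAs of that level 59.6% of the partners and 56.7% of all were lower.

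The calls of both members were then set beside each other. Both were higher in 73 pairs (14% of 520, beside 14.2% of all 1703 pairs tested), and both lower in 25 (4.81%, beside 4.87%). The lncRNA was higher and the partner lower in 102 pairs (19.6%, beside 16.1%). The lncRNA was lower and the partner higher in 4 pairs (0.769%, beside 1.53%). A further 58 pairs had no call in either member. In the 201 pairs with both members at 1 CPM or more these counts were 39 (19.4%), 18 (8.96%), 39 (19.4%) and 4 (1.99%). In all 572 pairs of that abundance the shares were 18.7%, 9.44%, 21.2% and 3.15% in the same order, so that the counts of -DT pairs were near what pairs in general gave.

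**Figure D2:**
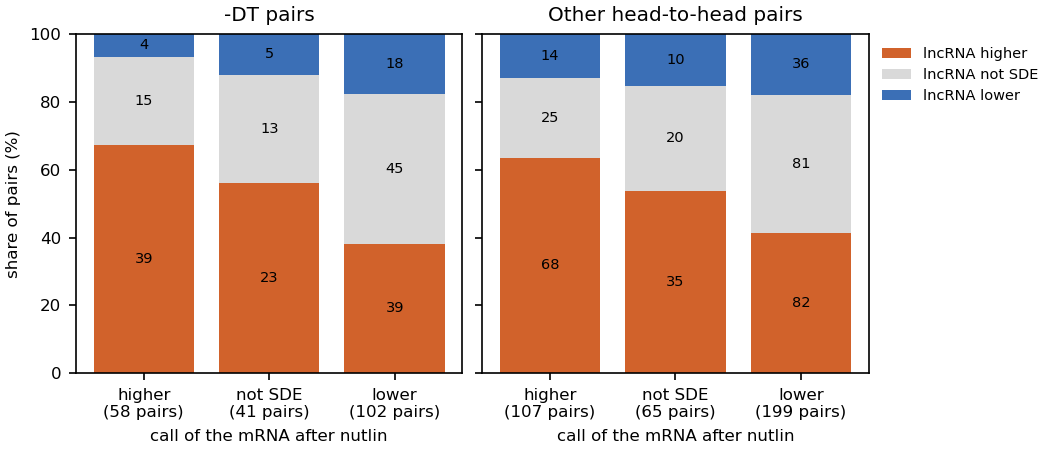
Share of pairs (y axis, %) in which the lncRNA was called higher, not called or lower after nutlin, split by the call of the mRNA (x axis), for pairs with both members at 1 CPM or more. The numbers in the bars are pairs, and in both kinds of pairs the orange part is tallest where the mRNA was higher, with 39 of 58 -DT pairs, and shortest where it was lower, with 39 of 102.

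The call of the lncRNA followed that of the partner only in part. At 1 CPM or more, 67.2% of the lncRNAs were higher where the partner was higher, 56.1% where it had no call and 38.2% where it was lower. The shares of lower lncRNAs were 6.9%, 12.2% and 17.6%. In the other head-to-head pairs of that abundance, 63.6%, 53.8% and 41.2% of the lncRNAs were higher in the same order. These shares are partly set by the filter on the mean of all 20 samples. In 21 of the 201 -DT pairs the lncRNA had a vehicle mean under 1 CPM, and 17 of these lncRNAs were higher. Over all 520 -DT pairs the shares higher were 52.5%, 37.1% and 37%, so that no call and a lower partner gave near-equal shares. Over all other head-to-head pairs they were 42.6%, 32.3% and 33.1%. Across the 520 pairs the Pearson correlation of both LFCs was 0.23, and across the 201 it was 0.36. Across the 371 other head-to-head pairs of that abundance it was 0.40. These are descriptions over pairs that share their libraries and their normalization. The correlation was 0.18 over 252 pairs with start sites within 200 bases, 0.17 over 194 pairs at over 200 and up to 1000 bases and 0.46 over 45 pairs further apart. In the other head-to-head pairs it was 0.28 over 383, 0.30 over 386 and 0.20 over 414 pairs at the same distances, so that the higher value in distant pairs was not seen there. It was 0.38 over the 86 -DT pairs with overlapping exons and 0.20 over the 434 without, beside 0.28 and 0.24 in the other pairs.

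**Figure D3:**
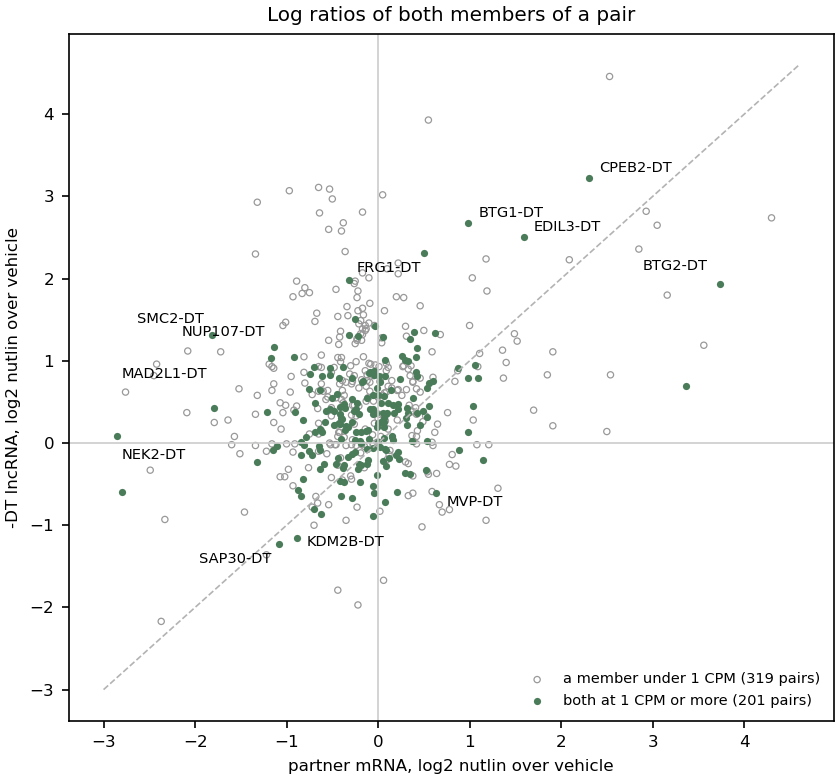
Log2 ratio of nutlin over vehicle for the -DT lncRNA (y axis) against its partner (x axis), with 1 point per pair, filled where both members had 1 CPM or more. The dashed line marks equal change, and 392 of the 520 points lie above it, with BTG2-DT and MVP-DT among those below.

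The LFC of the lncRNA was above that of its partner in 392 of 520 pairs (75.4%) and in 145 of the 201 pairs at 1 CPM or more (72.1%). In the other head-to-head pairs it was so in 69.2%, and in 73% at 1 CPM or more. The change of the ratio of lncRNA to partner was tested within each sample by limma on log2(CPM + 0.5). The ratio was higher after nutlin in 292 -DT pairs (56.2%, beside 49.8% of all pairs) and lower in 72 (13.8%, beside 18.6%). At 1 CPM or more it was higher in 116 (57.7%, beside 58%) and lower in 28 (13.9%, beside 15.7%). Where a lncRNA is scarce, the added 0.5 CPM holds its value nearly constant and the ratio mostly follows the partner. In 10 of the called pairs the sign of the ratio even differed from that of the difference of both LFCs, among them CPEB2-DT. An interaction test on the counts in edgeR, which adds no such constant, called 242 -DT pairs higher (beside 40.8% of all 1703 pairs) and 36 lower (beside 9.63%).

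Where both members rose, the largest changes of lncRNAs at 1 CPM or more were those of CPEB2-DT, BTG1-DT, EDIL3-DT, DNAJB5-DT and BTG2-DT. The mean of 1 CPM is taken over all 20 samples, and these 5 lncRNAs reached it only through the nutlin samples, with vehicle means of 0.218 to 0.808 CPM, so that their rank is partly set by the change itself. Of the 39 pairs with both members higher, 26 had the lncRNA at 1 CPM or more in the vehicle as well. CPEB2 binds cytoplasmic polyadenylation elements and controls translation. CPEB2-DT was between 0.0671 and 0.461 CPM in the vehicle (median 0.198) and between 1.64 and 2.56 CPM in the nutlin samples (median 2.18). CPEB2 went from 5.71 to 10.8 CPM in the vehicle (median 9.7) to 31.7 to 55.9 CPM (median 45.9). No nutlin sample overlapped with a vehicle sample in either member, and the LFCs were 3.22 ± 0.22 (adjusted p = 7.09e-14) and 2.30 ± 0.10 (adjusted p = 2.65e-18). The interaction test gave a ratio change of 0.93 on the log2 scale (adjusted p = 0.0011), whereas limma with the added 0.5 CPM gave -0.35 (adjusted p = 0.0262).

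BTG1 and BTG2 are antiproliferative proteins of the same family, and both belong to the p53 target list. BTG2-DT was between 0.184 and 0.902 CPM in the vehicle (median 0.464) and between 0.898 and 2.36 CPM in the nutlin samples (median 1.83), so that the groups touched. BTG2 went from 13 to 18 CPM (median 14.9) to 194 to 216 CPM (median 205). The LFC of 1.93 ± 0.21 for the lncRNA (adjusted p = 2.42e-09) was below that of 3.74 ± 0.05 for the mRNA (adjusted p = 6.08e-31). With an offset for effective transcript length the LFCs were 2.85 and 3.73, so that the gap was smaller. The ratio fell by 2.44 ± 0.14 by limma (adjusted p = 2.78e-14), where the added 0.5 CPM exceeds the vehicle median of BTG2-DT. It fell by 1.81 in the interaction test. For BTG1 the order was the other way round. BTG1-DT went from 0.428 to 1.15 CPM (median 0.727) to 4.01 to 5.81 CPM (median 4.72), an LFC of 2.68 ± 0.13, while BTG1 rose from a median of 19.8 to 39.3 CPM, an LFC of 0.98 ± 0.06. BTG1-DT shares 274 exon bases with BTG1 on the other strand.

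DNAJB5-DT, beside an HSP40 co-chaperone, was between 0.421 and 0.731 CPM in the vehicle (median 0.574) and between 1.77 and 3.41 CPM in the nutlin samples (median 2.96). Its LFC was 2.31 ± 0.15 (adjusted p = 1.36e-14), against 0.50 ± 0.04 for DNAJB5 (adjusted p = 4.01e-13). EDIL3-DT, beside the gene of a secreted integrin ligand, rose with an LFC of 2.51 ± 0.14 and EDIL3 with one of 1.59 ± 0.06. The starts of that pair overlap, and 205 exon bases are shared. In all 5 pairs the members rose together, and the ratio moved towards the lncRNA in 4 of them by the interaction test and towards the mRNA in BTG2.

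**Figure D4:**
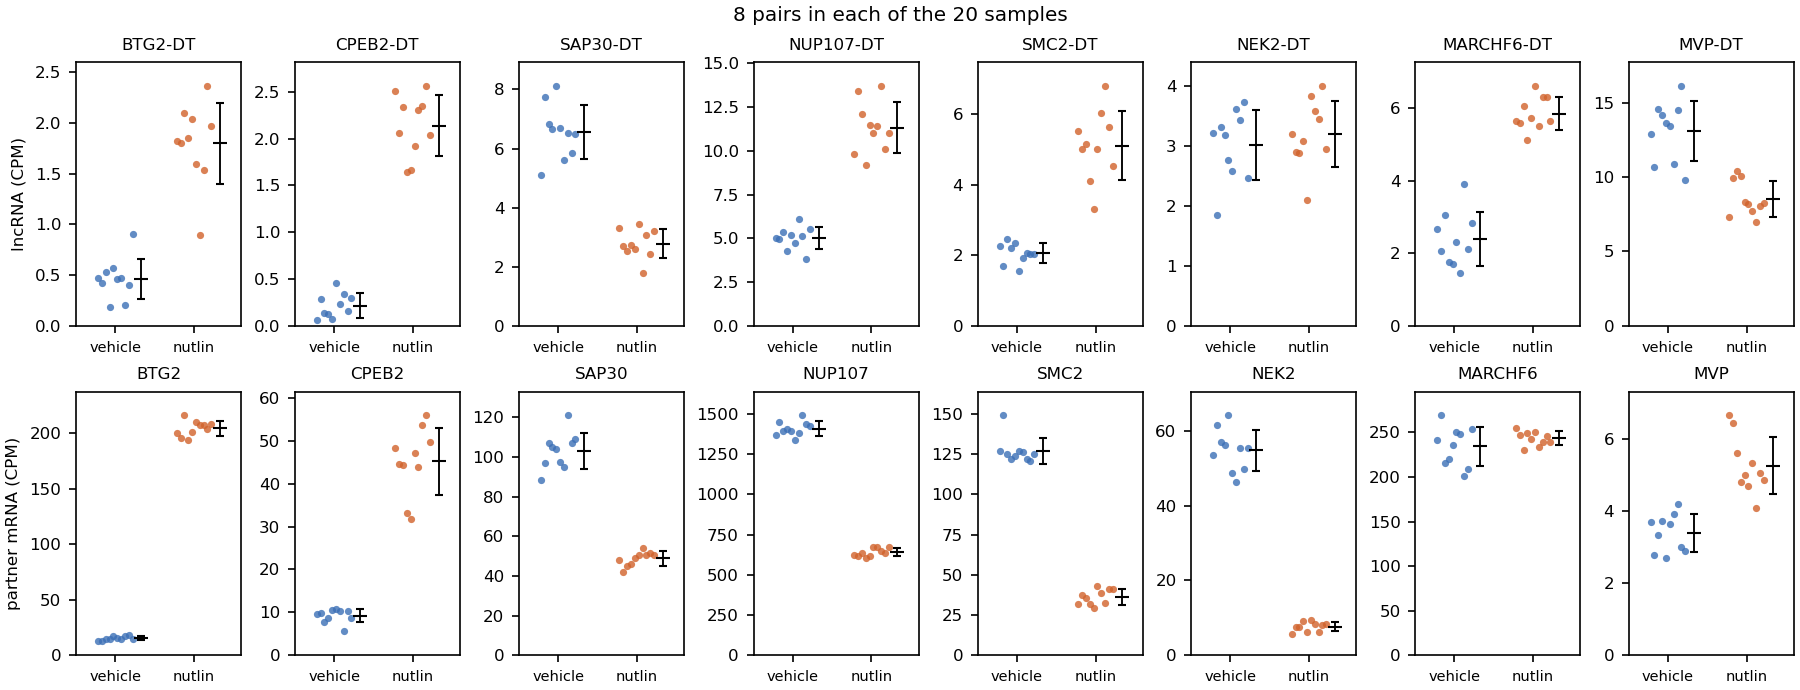
CPM (y axes, from 0) of the lncRNA (top row) and the partner mRNA (bottom row) of 8 pairs in the 10 vehicle (blue) and 10 nutlin (orange) samples, with the mean ± SD beside each group. BTG2 and CPEB2 rose in both rows, SAP30 fell in both, NUP107 and SMC2 rose above and fell below, NEK2 fell only below, MARCHF6 rose only above, and MVP fell above and rose below.

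Where both members fell in pairs at 1 CPM or more, the LFC of the lncRNA was not below -1.23. SAP30 is a subunit of the SIN3 histone deacetylase complex. SAP30-DT was between 5.1 and 8.11 CPM in the vehicle (median 6.6) and between 1.8 and 3.44 CPM in the nutlin samples (median 2.72). SAP30 went from 88.3 to 121 CPM (median 105) to 42.1 to 54.3 CPM (median 49.8). The groups were apart in both members, with LFCs of -1.23 ± 0.11 (adjusted p = 1.46e-11) and -1.08 ± 0.05 (adjusted p = 6.59e-18), and no change of the ratio passed the test (-0.04 ± 0.10, adjusted p = 0.751). KDM2B-DT fell with an LFC of -1.15 ± 0.12 and KDM2B, a histone demethylase, with -0.89 ± 0.03, and that ratio did not pass either (-0.11 ± 0.10, adjusted p = 0.33). SAP30-DT shares 128 and KDM2B-DT 232 exon bases with its partner.

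UBL7-DT and UBL7, a ubiquitin-like protein, had LFCs of -0.86 ± 0.08 and -0.62 ± 0.05 without shared exons. UBL7-DT was between 5.9 and 8.24 CPM in the vehicle (median 7.78) and between 3.22 and 4.76 CPM in the nutlin samples (median 4.02). Both groups were again apart. C1orf21-DT had an LFC of -0.80 ± 0.16 beside -0.70 ± 0.04 for C1orf21. RNASEH1-DT, beside the gene of the nuclease that cuts RNA in RNA-DNA hybrids, was between 17.5 and 23.7 CPM in the vehicle (median 20.1) and between 10.5 and 13.5 CPM in the nutlin samples (median 12.8). It fell more than RNASEH1 did (LFCs of -0.67 ± 0.06 and -0.29 ± 0.04), and the ratio fell by 0.37 ± 0.07 (adjusted p = 7.27e-05).

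Members that moved in opposite directions mostly did so with the lncRNA higher, in 39 pairs at 1 CPM or more against 4 the other way. This was no trait of -DT pairs alone, as all 572 pairs of that abundance gave 121 against 18. The largest differences at 1 CPM or more were in the pairs of SMC2, NUP107, FRG1, CKAP2, MPC1 and RWDD3. NUP107 is a scaffold protein of the nuclear pore. NUP107-DT was between 3.82 and 6.13 CPM in the vehicle (median 5.1) and between 9.17 and 13.7 CPM in the nutlin samples (median 11.2), while NUP107 went from 1338 to 1491 CPM (median 1401) down to 604 to 672 CPM (median 637). The groups were apart in both members, and the LFCs were 1.17 ± 0.08 (adjusted p = 2.84e-13) and -1.14 ± 0.03 (adjusted p = 1.49e-23). Other transcripts of the pair share 260 exon bases, although the canonical start sites are 119 bases apart and point away from each other.

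SMC2 is a core subunit of condensin, which compacts chromosomes in mitosis. SMC2-DT was between 1.56 and 2.46 CPM in the vehicle (median 2.05) and between 3.33 and 6.8 CPM in the nutlin samples (median 5.1), and SMC2 went from 121 to 149 CPM (median 125) down to 29.1 to 43.2 CPM (median 36.6). The LFCs were 1.31 ± 0.12 (adjusted p = 4.63e-11) and -1.81 ± 0.06 (adjusted p = 1.14e-21). The rise of the lncRNA depended on how transcript length was treated. Per length SMC2-DT was at 1.56 TPM in the vehicle and 1.95 TPM in the nutlin samples, and with an offset for effective length its LFC was 0.32 and no longer passed the test.

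FRG1-DT lies at the end of chromosome 4 beside FRG1, a gene of the region linked to facioscapulohumeral muscular dystrophy. It was between 0.325 and 1.54 CPM in the vehicle (median 1.16) and between 3.28 and 5.34 CPM in the nutlin samples (median 4.67). The LFC was 1.98 ± 0.14 (adjusted p = 3.87e-13), and that of FRG1 was -0.32 ± 0.06 (adjusted p = 8.75e-06), with groups of FRG1 that overlapped. FRG1 has near-identical copies elsewhere in the genome, so that its counts are uncertain. MPC1-DT had an LFC of 1.03 ± 0.15 and MPC1, a subunit of the mitochondrial pyruvate carrier, one of -1.17 ± 0.07. RWDD3-DT had 1.05 ± 0.13 and RWDD3, which enhances sumoylation, -0.92 ± 0.09. In CKAP2, which encodes a spindle protein, the mRNA fell by 1.79 ± 0.05 while CKAP2-DT rose by only 0.43 ± 0.18 (adjusted p = 0.0419), with groups that overlapped. That rise no longer passed the test with the offset for effective length (LFC 0.40) or at 1% FDR.

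The reverse, a lower lncRNA beside a higher mRNA, was found in 4 pairs, named here after their values were seen. They are MVP-DT, PAXIP1-DT, ST3GAL1-DT and VPS13B-DT. MVP is the main protein of vault particles, PAXIP1 acts in the response to DNA damage, ST3GAL1 is a sialyltransferase and VPS13B a lipid transfer protein of the Golgi. MVP-DT was between 9.81 and 16.1 CPM in the vehicle (median 13.5) and between 6.98 and 10.4 CPM in the nutlin samples (median 8.24), an LFC of -0.61 ± 0.09 (adjusted p = 5.7e-07). MVP was between 2.7 and 4.2 CPM (median 3.48) and between 4.08 and 6.64 CPM (median 5.03), an LFC of 0.63 ± 0.10 (adjusted p = 4e-06). The groups overlapped slightly in both members. With the offset for effective length, 3 of the 4 mRNAs no longer passed the test, at LFCs of 0.11 for MVP, 0.23 for PAXIP1 and 0.11 for ST3GAL1, while VPS13B stayed at 0.36. All 4 lncRNAs still passed it.

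In other pairs the ratio changed with a call for the lncRNA and no call for the partner. MARCHF6 and RPP38 encode a ubiquitin ligase of the endoplasmic reticulum and a subunit of RNase P. MARCHF6-DT was between 1.46 and 3.92 CPM in the vehicle (median 2.21) and between 5.13 and 6.61 CPM in the nutlin samples (median 5.69), an LFC of 1.29 ± 0.13 (adjusted p = 2.36e-10). MARCHF6 was at a median of 238 and 244 CPM (LFC 0.05 ± 0.04, adjusted p = 0.305), and passed the test with DESeq2 size factors, at an LFC of 0.10. RPP38-DT had an LFC of 1.01 ± 0.15 beside 0.08 ± 0.07 for RPP38, with 140 shared exon bases.

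The opposite case, a change in the mRNA with no call for the lncRNA, had its largest changes in NEK2, HNRNPD and RIPK2. NEK2 is a kinase that separates centrosomes at mitosis, and it fell furthest of all 519 partners. It was between 46.4 and 64.1 CPM in the vehicle (median 55.4) and between 5.58 and 9.39 CPM in the nutlin samples (median 7.82), an LFC of -2.85 ± 0.08 (adjusted p = 1.16e-23). NEK2-DT, whose start is 166 bases away, was between 1.85 and 3.74 CPM (median 3.2) and between 2.1 and 4 CPM (median 3.14). Its groups overlapped almost fully (LFC 0.08 ± 0.12, adjusted p = 0.591), and the ratio rose by 2.85 ± 0.13 (adjusted p = 1.2e-16). HNRNPD, which binds AU-rich elements, fell by 1.32 ± 0.03 while HNRNPD-DT had an LFC of -0.23 ± 0.15 (adjusted p = 0.191). RIPK2, a kinase downstream of NOD receptors, fell by 1.15 ± 0.11 beside -0.08 ± 0.10 for RIPK2-DT (adjusted p = 0.481).

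Partners of some known groups were counted from lists. Of 111 tested genes on the p53 target list, 103 were higher and 2 lower, with a median LFC of 1.95. The list held the partners of 6 -DT pairs, of which BTG1, BTG2, FCHO2 and TNFRSF10A, counted in 2 pairs, were higher and RB1 lower. Of the 6 lncRNAs 4 were higher (66.7%, beside 41.2% of all -DT lncRNAs), those of BTG1, BTG2, FCHO2 and RB1. FCHO2 acts in clathrin-mediated endocytosis. FCHO2-DT had 5 counts over the 10 vehicle samples and 96 over the 10 nutlin samples, with 0 to 0.071 CPM and 0.197 to 0.901 CPM. FCHO2 itself rose by a log2 value of 0.55 ± 0.07, from a median of 10.4 to 15.6 CPM. RB1, the retinoblastoma protein, had an LFC of -0.33 ± 0.06 (adjusted p = 2.29e-05) and RB1-DT one of 1.55 ± 0.42 (adjusted p = 0.00202) from 16 and 50 counts. TNFRSF10A is a death receptor of TRAIL. It had only 4 counts over the vehicle and 19 over the nutlin samples, and the lncRNAs named TNFRSF10A-DT had 22 and 26 counts (ENSG00000246582) and 2 and 6 counts (ENSG00000250714) with no call.

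The list of cell cycle, DNA replication and DNA repair genes held the partners of 9 pairs. Of its 210 tested genes 202 were lower and 6 higher (median LFC -2.06). All 9 partners were lower, with a median of -2.08, whereas 5 of their lncRNAs were higher (55.6%, beside 41.2% of all -DT lncRNAs), none lower, and the median LFC of the lncRNAs was 0.62. With the offset for effective length only 3 of the 9 lncRNAs were higher, as SMC2-DT and CKAP2-DT no longer passed the test. The 4 lncRNAs without a call were GTSE1-DT, H2AZ1-DT, CEP192-DT and LMNB1-DT. The ratio was higher in all 9 pairs by limma and in 8 by the interaction test, with CEP192 as the exception. Only 2 of the 9 pairs, SMC2 and CKAP2, had both members at 1 CPM or more.

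MAD2L1 holds back anaphase as part of the spindle checkpoint. It went from 194 to 242 CPM in the vehicle (median 210) to 28.3 to 37 CPM in the nutlin samples (median 31.1), an LFC of -2.76 ± 0.05 (adjusted p = 8.92e-27). MAD2L1-DT was between 0.332 and 0.759 CPM (median 0.474) and between 0.513 and 1.17 CPM (median 0.704), an LFC of 0.62 ± 0.22 (adjusted p = 0.0149). CDC20, the activator of the anaphase-promoting complex, fell by 2.42 ± 0.06 beside 0.96 ± 0.34 for CDC20-DT (adjusted p = 0.0155). STAG1, a cohesin subunit, fell by 1.04 ± 0.05 beside 1.43 ± 0.29 for STAG1-DT (adjusted p = 0.000103). LMNB1, lamin B1, fell by 2.08 ± 0.04, and LMNB1-DT had an LFC of 1.12 ± 0.58 (adjusted p = 0.0987). CEP192, of the centrosome, fell by 0.70 ± 0.04, and CEP192-DT, with 23 counts over the vehicle and 11 over the nutlin samples, had no call (adjusted p = 0.131). The groups of the lncRNAs overlapped in each of these 5 pairs.

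The list of adrenergic neuroblastoma and neural transcription factors held 3 partners among its 64 tested genes, of which 22 were higher and 33 lower. ISL1-DT was between 122 and 151 CPM in the vehicle (median 128) and between 205 and 227 CPM in the nutlin samples (median 218). ISL1 was between 304 and 336 CPM (median 314) and between 270 and 286 CPM (median 279). The groups were apart in both members, the lncRNA with an LFC of 0.74 ± 0.03 (adjusted p = 1.26e-17) and the mRNA with -0.18 ± 0.03 (adjusted p = 1.83e-06), and the ratio rose by 0.93 ± 0.04 (adjusted p = 8.22e-17). PBX3, a TALE homeodomain factor, fell by 1.72 ± 0.06 while PBX3-DT had an LFC of 1.11 ± 0.23 (adjusted p = 9.76e-05). IRX2-DT had 1 count in each condition and IRX2 was under 1 CPM in every sample.

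The largest list by number of partners was that of the ZNF zinc finger genes, with 18 pairs. Of these partners 9 were higher and 4 lower (median LFC 0.18), and of the lncRNAs 8 were higher and none lower (44.4% higher, beside 41.2% of all -DT lncRNAs, median LFC 0.32). Among all 501 tested ZNF genes 220 were higher and 126 lower, with a median of 0.13. The ratio was higher in 5 and lower in 3 of the 18 pairs by limma, and in 5 and 2 by the interaction test. Examples picked for close LFCs in both members were ZNF747-DT (0.30 beside 0.31 for ZNF747) and ZNF132-DT (0.67 beside 0.53 for ZNF132). The partners of 14 pairs were ubiquitin ligases, conjugases or proteases, with 5 higher and 7 lower (28% and 40.7% of all 339 on that list) and 4 lncRNAs higher. Of the 12 TMEM partners 2 were higher and 7 lower (34.1% and 39.1% of all 220), and 4 lncRNAs were higher. The 5 solute carrier partners had 4 lower and none higher, while of all 357 tested solute carrier genes 40.3% were higher and 26.6% lower. Of their lncRNAs 4 were higher, and 3 with the offset for effective length, among them SLC2A1-DT (0.72 ± 0.19, adjusted p = 0.00141) beside the glucose transporter SLC2A1 (-1.14 ± 0.04). Of the 6 PPP phosphatase partners 2 were higher and 3 lower (25% and 50% of all 72), with 2 lncRNAs higher and 1 lower. Of the 5 DNAJ and HSP partners 1 was higher and 3 lower (25.7% and 44.6% of all 74), with 2 lncRNAs higher. Of the 3 mitochondrial ribosomal protein partners 1 was higher and 2 lower (7.69% and 87.2% of all 78), with 1 lncRNA higher. In the order given, the lists after the ZNF genes had 28.6%, 33.3%, 80%, 33.3%, 40% and 33.3% of their lncRNAs higher. These shares, from few pairs each, stand beside 41.2% of all -DT lncRNAs. MRPL20-DT was at a median of 11.1 CPM in the vehicle and 11 CPM in the nutlin samples, while MRPL20 fell by 0.81 ± 0.06.

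A few pairs at the ends of the ranges were also named after their values were seen. BRINP3-DT had the lowest LFC of the -DT lncRNAs, with -2.17 ± 0.20 (adjusted p = 7.08e-11). It was between 1.81 and 2.68 CPM in the vehicle and between 0.131 and 0.962 CPM in the nutlin samples. BRINP3, a gene expressed in neural tissue, had an LFC of -2.37 ± 0.34. DDR1 is a collagen-binding receptor kinase. It rose from a median of 10 to 102 CPM (LFC 3.37 ± 0.07, adjusted p = 3.89e-26), while DDR1-DT rose from 3.09 to 5.09 CPM (LFC 0.69 ± 0.10, adjusted p = 1.17e-06), with groups that overlapped slightly. GNA15-DT, with the highest fitted LFC of 4.46, had 2 counts over the vehicle and 72 over the nutlin samples.

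The calls were also counted by structure and by distance. Of the 114 with a single exon 43% were higher and 7.89% lower, of the 267 with 2 or 3 exons 39% and 7.49%, and of the 139 with 4 or more exons 43.9% and 5.76%. Among all tested lncRNAs the shares called higher were 32%, 28.8% and 37.9% in the same order, and 8.99%, 5.68% and 5.85% were lower. Of the lncRNAs whose start was within 200 bases of the partner's, 37.7% of 252 were higher, beside 43.8% of 194 at over 200 and up to 1000 bases and 42.2% of 45 further away. In the other head-to-head pairs the shares at these distances were 36.8%, 39.6% and 32.1%. Of the 86 with overlapping exons 45.3% were higher, and of the 434 without 40.3%, beside 45.4% and 33.4% in the other pairs. These differences were not tested.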

How the data were processed

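RNA-seq of 10 nutlin and 10 vehicle samples of NGP cells was re-analysed from the processed files. The authors quantified stranded poly(A) reads with kallisto 0.42.4 on GRCh38 transcripts of Ensembl release 85. The deposited estimated counts are expected counts per transcript with no normalization, and the deposited TPM values are these counts scaled by the authors' kallisto runs for effective length and library size. The deposited effective lengths, in bases, served 1 alternative.

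Transcripts were matched by identifier to GENCODE release 44 (191106 of 198968), and counts were summed per gene and rounded. The test took in the 17351 mRNAs and 10346 lncRNAs with 1 count or more in both condition totals and used edgeR 4.0.16 in R 4.3.3 (quasi-likelihood F-test, TMM, condition as the only term, Benjamini-Hochberg adjustment over all genes, 5% FDR). All LFCs are log2 nutlin over vehicle with their standard errors. The ratio was tested with limma 3.58.1 over all 1703 pairs on log2(CPM + 0.5), a scale that understates changes of low genes. Ratios of TPM had 0.01 added. Start sites are those of canonical transcripts. Of 2 protein-coding genes named PINX1, the nearer was taken. Sequences were read from GRCh38 with pysam 0.24.0.

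On simulated data with 200 of 27268 genes changed 2-fold, the gene test recovered 99.5%, and 7.01% of its calls were false. With 29 of 1703 pairs changed 2-fold, the ratio test recovered 93.1%, and 10% of its calls were false. All changed genes had a mean of 1 CPM or more. Recovery of changes in genes under 1 CPM, where 60.6% of the -DT lncRNAs lie, was therefore not measured. Far fewer genes were changed in the simulation than were called in the data. No 2 libraries had identical counts. P-values cover only the spread between samples of 1 cell line.

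The members and lists were chosen with earlier results of these data known. Named pairs at 1 CPM or more were the 5 with the largest lncRNA LFC where both members rose and where both fell, the 6 with the largest LFC difference in opposite directions, and the 3 with the largest LFC of either member where only that member was called and the ratio changed. Added were the 5 most abundant lncRNAs, the 3 highest TPM ratios, pairs whose partner is on the p53 target list, and up to 6 pairs each from the cell cycle and transcription factor lists. A named pair and a marker gene are not reported here. Alternatives were DESeq2 1.42.0, its size factors, limma voom, filterByExpr with a minimum of 10 counts, a replicate block, a length offset, 1% FDR, another pseudocount, an interaction test, and subsets by abundance, distance and overlap.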

Additional observations from a re-analysis of the deposited data

Results flagged for a closer look

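Each group of 10 samples of each member of the named pairs was checked for a sample at its high or low end that stood apart from the others by Dixon's test at 95%. Chance flags about 1 in 20 groups. Of 172 groups, 15 were flagged. KDM2B-DT was at 3.49 CPM in nutlin sample 4 (others 1.9 to 2.59), CKAP2-DT at 1.09 CPM in nutlin sample 2 (others 2.05 to 3) and TBC1D22A-DT at 12.3 CPM in nutlin sample 7 (others 14.9 to 17.7). In nutlin sample 1, UBL7 was at 38.2 CPM (others 43 to 48.4) and C1orf21 at 62.9 CPM (others 50.6 to 56.5).

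In vehicle sample 4, SMC2 was at 149 CPM (others 121 to 127), CEP192 at 90.1 CPM (others 66.5 to 78.3) and ISL1-DT at 151 CPM (others 122 to 136). In vehicle sample 9, RIPK2 was at 7.24 CPM (others 4.27 to 5.44). In vehicle sample 10, GARS1 was at 261 CPM (others 219 to 240). The rest were at or near 0. CEP192-DT was at 0.489 CPM in vehicle sample 6, TNFRSF10A at 0.138 CPM in vehicle sample 10 and a lncRNA named TNFRSF10A-DT (ENSG00000250714) at 0.162 CPM in vehicle sample 11. IRX2-DT was at 0.0584 CPM in vehicle sample 9 and at 0.0644 CPM in nutlin sample 2, each from 1 count.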

How the results depend on the processing

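With DESeq2, limma voom, DESeq2 size factors, or without pairs that share exons, each count of calls in lncRNAs, partners and pairs stayed within 1.5 times its value. At 1% FDR 24 lncRNAs were lower (37 at 5%) and 15 pairs had both members lower (25 at 5%), by construction of the threshold. With filterByExpr, which leaves fewer lncRNAs, 15 pairs had both members lower and 60 the lncRNA higher and the partner lower (102 without it). The length offset left 74 pairs with the lncRNA higher and the partner lower (102 without it). It left 188 lncRNAs higher (214 without it) and 238 partners lower (276 without it). It also left 2 pairs with a lower lncRNA and a higher partner (4 without it), and the cause was not tested. Of those 4 pairs only VPS13B-DT was among the 2. The ratio was lower in 36 pairs by the edgeR interaction (72 by limma). Refitted on pairs with both members at 1 CPM or more, it was higher in 117 and lower in 28, from fewer pairs tested. The median log2 ratio of lncRNA to partner was -5.49 in CPM, which is not per length, and -2.62 at 1 CPM or more. The lncRNA was the higher member in 16 pairs in CPM and in 22 at 1 CPM or more. The correlation of LFCs was 0.36 at 1 CPM or more. The median LFC of the lncRNAs was 0.30 at 1 CPM or more, 0.51 with DESeq2 and 0.50 with its size factors, and that of the partners -0.11, -0.12 and -0.12. DESeq2 size factors moved the median of all genes from 0.19 to 0.24.

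Of 793 values of named pairs under the alternatives, 3 turned: the ratio of CPEB2-DT to 0.62 with a pseudocount of 0.1 and to 0.93 in the interaction test, and that of CEP192-DT to -0.32 in the interaction test. The added 0.5 CPM exceeds these lncRNAs in the vehicle samples. A further 8 lncRNA, 13 partner and 2 ratio values lost their call.

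The 2 groups share 8 replicate numbers. With the number as a replicate block over these 16 samples, 183 lncRNAs were higher and 29 lower, 128 partners higher and 254 lower, and 273 ratios higher and 58 lower. The same 16 samples without the block gave 198 and 27, 130 and 257, and 277 and 61. This comparison and the medians with DESeq2 size factors were added after the data were seen. Deviations of samples with the same number had correlations of -0.0778 to 0.0951 (mean -0.00926), no vehicle sample correlated best with its own number, and the numbers were not treated as pairs. Depth limits the 315 lncRNAs under 1 CPM.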
